A study of Mus musculus with 10 samples.

Results

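AP-1 and immediate early genes were examined here as a set of 9: Fos, Fosb, Fosl1, Fosl2, Jun, Junb, Jund, Atf3 and Egr1. The data were Hi-C loops of mouse bone marrow-derived macrophages (BMDMs), macrophages grown from marrow with M-CSF for 6 d. Every line of the 5 deposited loop lists was taken that had at least 1 anchor, a 10 kb bin, overlapping the 100 kb on either side of a gene's transcription start site (TSS) in GENCODE M21 on GRCm38. This gave 2876 of the 301424 loops in the 5 lists together, and no loop was counted for more than 1 of the 9 genes.

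The BMDMs were left untreated (M0[CTR]), kept for 24 h with 20 ng/ml IL-4 (M2[IL-4]), or treated likewise and then washed and rested for 24 h (M2p[pIL-4]). Untreated cells also received 20 ng/ml IFNG for 3 h (IFNG), and rested IL-4 cells received the same IFNG dose and time (pIL-4 + IFNG). Each group had 2 Hi-C samples, but 1 list came from the merged replicates of each group, and no difference could be checked against the spread between replicates. Hi-C counts ligated DNA ends and says nothing of RNA, so neither the cell type nor the activity of the genes could be checked. The lists held 53424 loops (M0[CTR]), 58260 (M2[IL-4]), 67728 (M2p[pIL-4]), 55012 (IFNG) and 67000 (pIL-4 + IFNG), with 2174945 to 2787117 contacts. Values for the 5 lists are given in this order throughout.

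AP-1 is a dimer of basic leucine zipper proteins of the FOS, JUN and ATF families that binds short DNA sites in promoters and enhancers. Several of its genes, with Egr1, a zinc finger factor, are immediate early genes: signals switch on their transcription within minutes and without new protein synthesis. In macrophages AP-1 works beside the lineage factor PU.1 at enhancers of cytokine and tissue repair genes, and chromatin loops are one way in which distant enhancers reach such promoters. Many loops end at sites of CTCF, the factor that halts the ring-shaped cohesin complex as it extrudes a loop.

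The 9 genes differed in how far their loops reached. Over the 5 lists together, the median span of the loops near Junb was 20 kb, near Jund 30 kb, near Fosl1 40 kb and near Atf3 60 kb. The medians were 100 kb for Fos and 110 kb for both Fosb and Egr1. Those of Fosl2 and Jun were 530 and 770 kb. Over the 12249 protein-coding genes with 5 or more loops on average over the lists, the median of this span was 120 kb. Junb lay at percentile 0.0245 of these genes and Jun at percentile 98.6. Pairs of adjacent bins were 33.3% of the loops near Junb, 25.6% near Jund and 25.3% near Fosl1. They were 13.8% near Atf3, 7.69% near Fos, 6.62% near Fosb, 5.26% near Egr1, 1.11% near Fosl2 and 0.0% near Jun.

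The loci also differed in loop number. Jun had 116, 120, 134, 143 and 149 loops, a mean of 132.0 that lay at percentile 99.7 of the same genes. Fosl2 had 83, 87, 89, 92 and 100 loops, and Fos had 84, 84, 98, 78 and 98. Fosb had 72, 65, 92, 78 and 86 loops. These 4 loci were at percentile 96.1 or above. Atf3 had 53, 61, 72, 44 and 59 loops and Jund 43, 50, 53, 44 and 56. Fosl1 (23, 30, 37, 30 and 34), Junb (33, 24, 35, 21 and 31) and Egr1 (17, 24, 19, 16 and 19) were closest to the median gene, which had 22.0 loops. In this order the lowest Jun value was above the highest value of every other gene, and the lowest Jund value was above the highest of Fosl1. All other neighbours in the order of mean loop number had overlapping ranges.

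**Figure D1:**
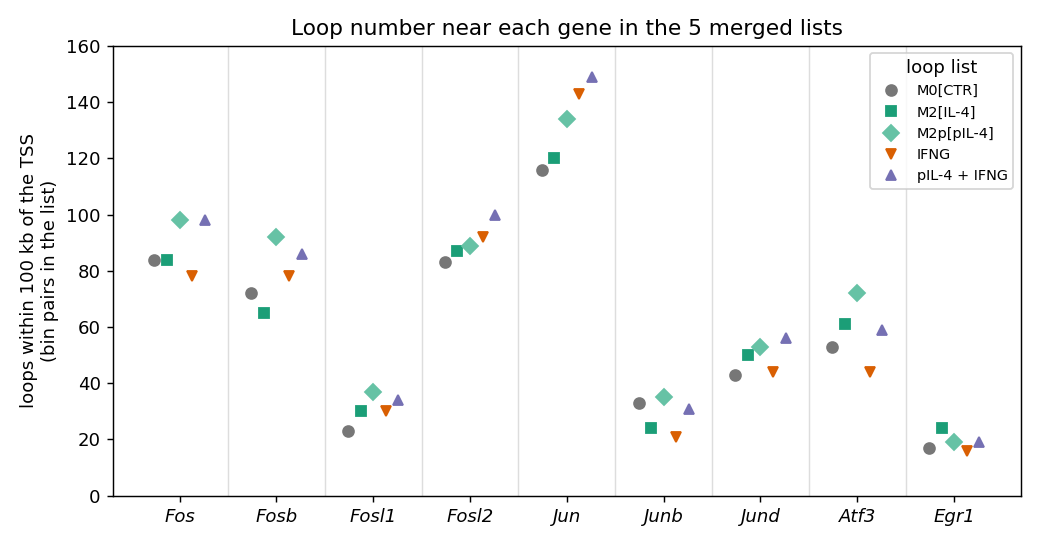
Number of loops within 100 kb of the TSS of each gene (y axis, bin pairs in the list as deposited) in the 5 merged loop lists (symbols, 1 value per list, no replicate error). Jun stands between 116 and 149 in every list, and Egr1 between 16 and 24.

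Fos, the founding FOS family gene, lies at chr12:85473890-85477273 on the plus strand. Its loops had partners on both sides of the gene. On the upstream side, bins 80 to 130 kb from the TSS, in and around Tmed10, held 33, 36, 38, 36 and 37 loops of the window. On the downstream side, bins at 160 to 200 kb held 22, 23, 22, 21 and 26. Both blocks were thus present at nearly the same number in all 5 lists. The TSS bin itself had 5, 7, 6, 7 and 6 loops, and 4 of its bin pairs were called in every list.

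The pair with the most contacts among those linked the TSS bin to the next bin downstream, with 186, 197, 164, 201 and 165. The only promoter-to-promoter pair among them joined Fos to the bin with the TSS of Tmed10, a cargo receptor of the early secretory pathway, at 100 kb. It had 54, 57, 46, 41 and 48 contacts, and the exact 95% Poisson limits of the lowest and highest value (29.4 to 55.6 and 43.2 to 73.9) overlapped. Poisson limits here cover counting error only.

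Bins with the TSSs of Jdp2 and Batf, which encode further basic leucine zipper proteins, lay downstream of Fos at 120 and 210 kb. The Jdp2 bin was joined to the Fos window by 2, 2, 4, 1 and 3 loops and the Batf bin by 2, 0, 1, 4 and 3. These numbers were too low to order the lists.

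Fosb lies at chr7:19302696-19310051 on the minus strand, with 11 other TSSs in its window. Its TSS bin had 2, 3, 2, 3 and 3 loops. The pair with the next bin upstream was in every list, with 145, 127, 167, 147 and 147 contacts. The most used bin of the window, 30 kb downstream of the TSS, held the TSSs of Ppm1n and Rtn2 and had 11, 12, 12, 10 and 11 loops. A separate group of loops reached upstream to 270 to 310 kb, where Relb, an NF-kappaB subunit gene, lies, with 15, 11, 12, 14 and 11 loops. Within it, a bin 90 kb upstream of Fosb (Ckm and Klc3) and a bin in the Relb gene at 300 kb were paired in all 5 lists, with 45, 34, 45, 51 and 38 contacts. These 2 bins were among those that matched the CTCF core consensus, shown further on.

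Fosl1, whose product FRA1 lacks the transactivation domain of FOS, lies at chr19:5447547-5455946 on the plus strand in a gene-dense window of 15 other TSSs. It was the only gene apart from Jun with no TSS-bin pair called in all 5 lists. Its TSS bin had 1, 2, 1, 0 and 1 loops. The strongest, to the adjacent bin with the TSS of Ccdc85b, was called in the 3 lists without IFNG, with 123, 108 and 112 contacts, and in neither list of IFNG-treated cells. Even so, its contacts were at most 0.866 times the median of all loops of that length in the same list. A bin pair missing from a list has an unknown count there, not a count of 0. The busiest bins near Fosl1 were instead 80 and 90 kb downstream, both paired in every list with the bin of Ap5b1 and Ovol1 at 120 kb.

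Fosl2, which encodes FRA2, lies at chr5:32135801-32157842 on the plus strand. Its loops ran almost all one way. Of its 451 loops in the 5 lists, 433 (96.0%) had a partner upstream of the window and 3 had one downstream. Partners at 400 to 580 kb upstream, from Babam2 past Rbks and Mrpl33, took 71, 69, 66, 75 and 76 loops with 1312, 1287, 1327, 1492 and 1425 contacts. On the Fosl2 side the loops gathered in the bin after the TSS bin (13, 12, 15, 18 and 16 loops) and in a bin without a protein-coding gene 60 kb downstream (20, 17, 19, 17 and 18 loops).

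The TSS bin of Fosl2 had 9, 12, 9, 6 and 8 loops, in sum the most of the 9 genes. Among them, loops of 400 kb or more numbered 9, 10, 7, 4 and 4, fewer in both IFNG lists than in each of the other 3. Pairs of the TSS bin with bins at 420, 520 and 540 kb were called in each of those 3 and in neither IFNG list. That at 520 kb, inside Mrpl33, had 25, 16 and 17 contacts. The neighbouring bin 10 kb into the gene had its highest number in the IFNG list, and the whole block did not lose loops in the IFNG lists. This feature of 1 bin was picked out after its values were seen.

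In all 5 lists the Fosl2 TSS bin was paired with a bin 560 kb upstream (28, 23, 27, 18 and 16 contacts) and with the bin 440 kb upstream that holds the TSSs of Babam2, a DNA repair scaffold, and Rbks, ribokinase (18, 19, 21, 18 and 31 contacts). The 95% Poisson limits of the lowest and highest counts overlapped for both, at 9.15 to 26.0 and 18.6 to 40.5 for the first, and at 10.7 to 28.4 and 21.1 to 44.0 for the second.

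Jun, the founding JUN family gene, lies at chr4:95049034-95052222 on the minus strand. It had the most loops of the 9 genes and none at its own TSS bin in any list. A TSS bin without a loop in any list was found for 2241 of the 12249 genes (18.3%), but for 2 of the 42 genes with at least as many loops as Jun, Jun included. The TSS bin held 31 MboI sites, the sites cut in the Hi-C protocol, against a median of 24.0 over TSS bins.

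Jun loops left mostly from bins on the 3′ side of the gene and passed over it. The adjacent downstream bin, which holds the 3′ end of the gene, had 24, 19, 28, 19 and 18 loops, and a bin without a protein-coding gene 50 kb downstream had 19, 27, 24, 27 and 32. Of 662 loops, 660 (99.7%) had their partner upstream of the window, none had one downstream, and 592 (89.4%) spanned 500 kb or more. The main distant group of partners lay 810 to 880 kb upstream inside Fggy, a carbohydrate kinase gene, and took 40, 42, 51, 56 and 53 loops. All 17 bin pairs that were called in every list ended in this group. They carried few contacts each, as in the pair between 50 and 870 kb with 24, 23, 20, 18 and 21. The median count of a Jun loop was 12 to 13 contacts and its median strength, meaning its contacts divided by the median of all loops of that length in that list, was 1.0 in every list, so Jun loops were no stronger than other called loops of their length.

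**Figure D2:**
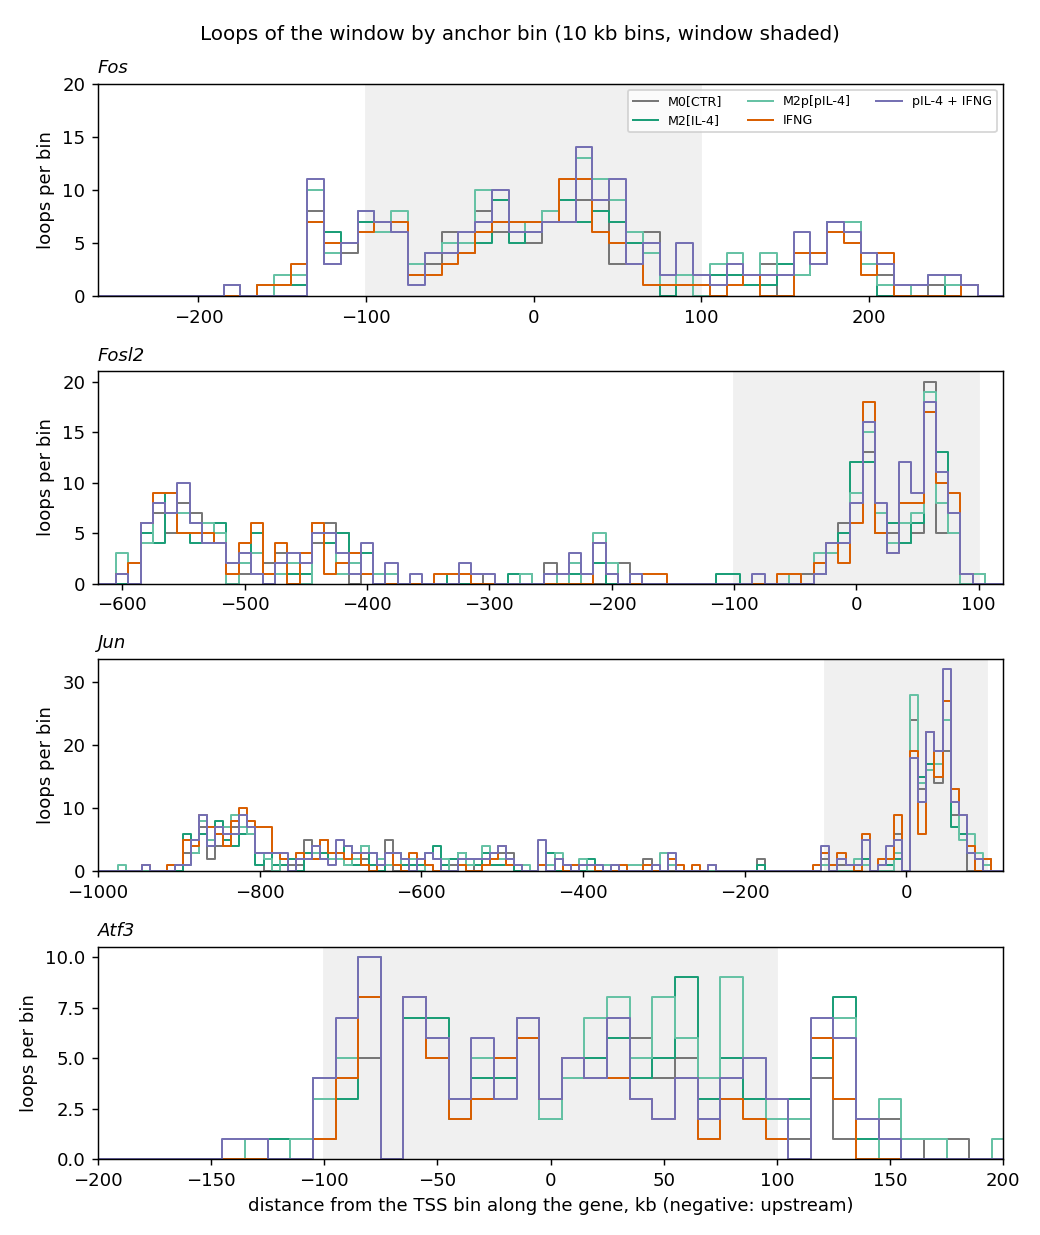
Loops of the window per 10 kb bin (y axis) against distance from the TSS bin along the gene in kb (x axis, negative upstream) for Fos, Fosl2, Jun and Atf3, 1 line per list, with the window of 100 kb either side shaded. Fos has partners on both sides, whereas the Fosl2 partners at 400 to 580 kb and the Jun partners at 810 to 880 kb lie upstream in every list, and the Jun TSS bin at 0 has no loop.

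Junb lies at chr8:84974484-84978718 on the minus strand, among 16 other TSSs. Of its 144 loops, 120 (83.3%) had both anchors inside the window. Its TSS bin was paired in every list with the next bin upstream (255, 203, 226, 233 and 224 contacts) and with the bin of the TSS of Hook2, which encodes a linker of organelles to microtubules, at 20 kb (190, 221, 209, 203 and 229 contacts). The latter pair reached a strength of 2.54, the highest of any TSS-bin loop of the 9 genes. A pair with the bin 50 kb upstream, which has the TSSs of Asna1 and Trir, was called in M2p[pIL-4] and pIL-4 + IFNG, with 70 and 58 contacts, and in no other list. Those are the longest lists, and the counts of this pair in the others are unknown.

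Jund lies at chr8:70698949-70700616 on the plus strand. Of its 246 loops, 157 (63.8%) had both anchors inside the window. Its TSS bin was paired in all 5 lists with the bin of Lsm4, which encodes a subunit of a ring complex in RNA processing, 20 kb upstream (138, 113, 114, 115 and 125 contacts). The pair with the bin between them was called in all lists but M0[CTR], the shortest list, with 181, 169, 158 and 170 contacts.

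Atf3, a stress-induced gene of the ATF family known to restrain inflammatory transcription in macrophages, lies at chr1:191170296-191218039 on the minus strand. The rule used the TSS at the gene's outer end, and the start of the APPRIS principal transcript lies 34699 bp downstream, 3 bins into the gene. The bin of that principal start had 7, 6, 8, 4 and 7 loops and the outer TSS bin 2, 2, 2, 3 and 3. Upstream bins at 60 and 80 kb, where no protein-coding gene lies, were the busiest of the window and together took 13, 15, 18, 16 and 18 loops. Each was paired in every list with bins inside Atf3, the principal start included. That start and the bin at 60 kb had 69, 66, 61, 60 and 49 contacts, and that start and the bin at 80 kb 44, 60, 55, 48 and 83.

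The pair of the outer TSS bin and the bin at 60 kb was called only in IFNG and pIL-4 + IFNG, with 37 and 28 contacts. Its strength was at most 0.685, below that of the median loop of its length, and its counts in the other lists are unknown. On the other side, Batf3, a basic leucine zipper gene known for its role in dendritic cells, has its TSS 120 kb downstream, and its bin was joined to the Atf3 window by 4, 5, 6, 6 and 7 loops. The bin beyond it, in Nsl1, had 1, 8, 7, 3 and 6. Together these 2 bins had 5 loops in M0[CTR] and 9 to 13 in the other lists. Except in IFNG, the difference lay more in the Nsl1 bin. These numbers are not scaled by list length, M0[CTR] is the shortest list, and the 2 bins were picked after their values were seen. Their pairs with the bin 90 kb downstream of the outer TSS were in all 5 lists, that of Batf3 with 110, 134, 124, 133 and 126 contacts. The windows of Atf3 and Batf3 overlap and share loops.

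Egr1 lies at chr18:34859823-34864984 on the plus strand. It had on average the fewest loops of the 9 genes. Its TSS bin was paired in every list with a bin 30 kb downstream (91, 100, 99, 108 and 108 contacts), and the next bin, which holds nearly all of the gene, was paired with the same partner (99, 110, 133, 114 and 135 contacts). These were the 2 bin pairs of its window that all 5 lists shared. Loops of 500 kb or more, to bins of Gm28285, Matr3 and Paip2 at 610 to 740 kb downstream, numbered 9, 8, 6, 10 and 8. They were 9 of 17 loops in M0[CTR] and 10 of 16 in IFNG, where the median span was 590 and 615 kb against 75, 110 and 100 kb in the others. Loops with both anchors in the window numbered 8, 14, 10, 6 and 10. Numbers this low do not order the lists for either kind of loop.

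**Figure D3:**
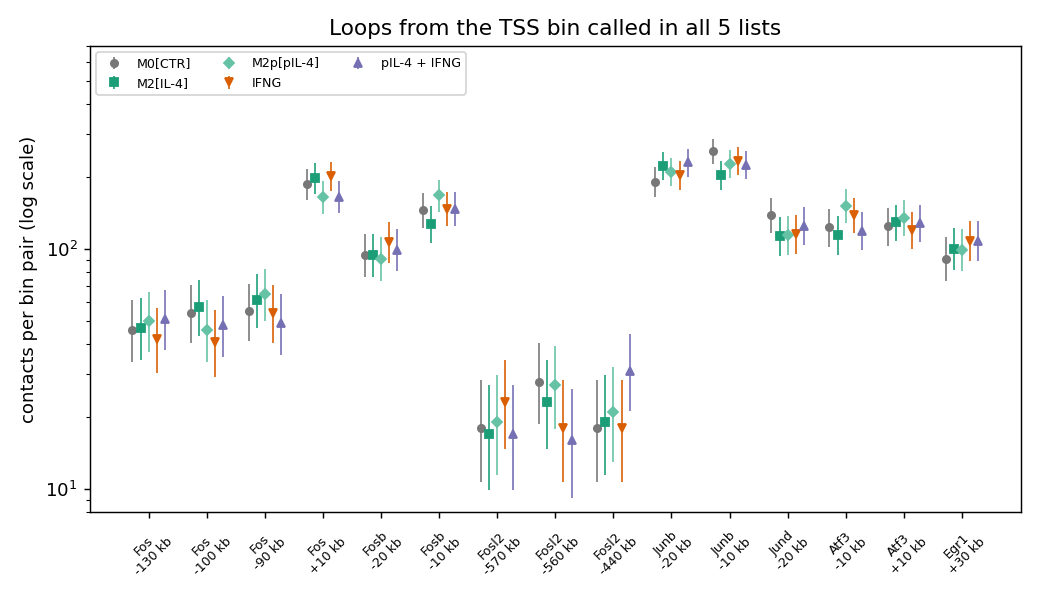
Contacts per bin pair (y axis, log scale) of the 15 loops from a TSS bin that all 5 lists called, by gene and by distance of the partner bin along the gene (x axis). Symbols are the 5 lists and bars are exact 95% Poisson limits, which overlap for the lowest and highest value of the Fosl2 pairs at -560 and -440 kb.

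To see what lies in the bins that the loops join, sequence was read from GRCm38.p6. The CTCF core consensus, a motif of 12 bases searched on both strands, occurred in 4.7% of the 255608 bins without undetermined bases and in 9.15% of the 70658 bins that were an anchor in any list. It occurred in 10 of the 54 anchor bins of Fosb loops (18.5%), in 4 of 28 for Junb (14.3%), in 4 of 34 for Jund (11.8%), in 5 of 43 for Atf3 (11.6%) and in 5 of 50 for Fosl1 (10.0%). Below the share of all anchor bins were Egr1 with 3 of 33 (9.09%), Fos with 3 of 44 (6.82%), Fosl2 with 3 of 65 (4.62%) and Jun with 1 of 88 (1.14%). Fosl2 and Jun, whose loops had the widest median spans, had the lowest shares, on 4 bins in all. A match is a stretch of letters and not a bound site. As examples picked after their values were seen, the matches are shown in both bins of the pair between Fosb and Relb, in the single matching bin of Jun loops, and in a Fos bin with 43 loops in the 5 lists together. Each of these bins ends at least 1 pair called in every list. Other often used bins, among them bins of Fosb, Fosl1 and Egr1 loops, also held matches. The core is in capitals with 9 bases on either side, read 5′ to 3′ on the strand given.
Fos, 20 kb downstream (chr12:85496909-85496938, plus strand): gagatactaCCAGCAGAGGGCgctcttcag
Fosb, 90 kb upstream (chr7:19405544-19405573, plus strand): acgaaaccgCCACCAGATGGCactgcgggt
Fosb, 90 kb upstream (chr7:19406147-19406176, minus strand): ccactccttCCACCAGATGGCcgcaggact
Fosb, 300 kb upstream in Relb (chr7:19610140-19610169, plus strand): cagaactggCCAGCAGGTGGCtgtgttggg
Jun, 810 kb upstream in Fggy (chr4:95863073-95863102, minus strand): ggtcccactCCAGCAGATGGCagtaggtga

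The promoters of Fos and Jun are shown because the TSS bin of the one was an anchor in every list and that of the other in none. Both are 240 bases long, from 250 to 11 bases before the RefSeq start on GRCm38.p6, which is also the GENCODE start. RefSeq promoters were found for 7 of the 9 genes, not for Fosl1 or Egr1. Capitals mark TATAAA, which positions RNA polymerase in many promoters, 33 bases before the Fos start and TGACATCA, a variant of the AP-1 site, 45 bases before the Jun start. On either strand, these letters occurred in 12.1% and 2.84% of the 32851 promoters of the same length. Neither stretch held an exact match to the AP-1 site TGAGTCA (4.35% of promoters) or to the full cAMP response site TGACGTCA (1.44%). The Fos stretch does hold TGACGT, the first part of the latter, and partial sites were not counted.
Fos (chr12:85473640-85473879, plus strand): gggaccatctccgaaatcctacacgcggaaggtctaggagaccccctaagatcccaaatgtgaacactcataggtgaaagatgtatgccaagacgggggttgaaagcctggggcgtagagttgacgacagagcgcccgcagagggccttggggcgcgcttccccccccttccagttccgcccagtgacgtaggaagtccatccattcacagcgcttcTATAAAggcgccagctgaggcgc
Jun (chr4:95052233-95052472, minus strand): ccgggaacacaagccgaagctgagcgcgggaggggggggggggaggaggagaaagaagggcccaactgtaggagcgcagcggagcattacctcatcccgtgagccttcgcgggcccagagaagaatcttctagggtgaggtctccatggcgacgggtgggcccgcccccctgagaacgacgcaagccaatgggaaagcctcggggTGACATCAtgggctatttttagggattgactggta

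The question of the IL-4 comparisons was whether loops near these genes changed during IL-4 exposure and whether a change outlasted the washout. By the times given, the rested groups had a further 24 h, and no group without IL-4 was listed with that rest. Washout and added time in culture therefore cannot be told apart. Loop numbers were scaled by list length, 1 was added, and a log2 ratio past 1.5-fold in either direction was counted. For M2[IL-4] against M0[CTR], none of the 9 genes passed, where 9.21% of genes were past it as higher and 7.82% as lower. The widest values were those of Junb at -0.57, from 33 to 24 loops, and Egr1 at 0.36, from 17 to 24 loops. For M2p[pIL-4] against M0[CTR], none passed either (background 8.05% higher and 4.71% lower). Fosl1 at 0.33 was the highest and Junb at -0.25 the lowest. For M2p[pIL-4] against M2[IL-4], none passed (8.09% higher and 5.75% lower). Egr1, at -0.53 with 24 and 19 loops, came closest, and Junb was at 0.32.

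For the response to IFNG, Junb was the single gene past 1.5-fold. In IFNG against M0[CTR] its log2 ratio was -0.67, from 33 to 21 loops, where 10.3% of genes were past the fold as higher and 8.49% as lower, and Junb stood at percentile 6.53. The other genes lay between -0.31 (Atf3) and 0.33 (Fosl1). After IL-4, in pIL-4 + IFNG over M2p[pIL-4], none of the 9 passed (8.16% higher and 6.07% lower), with Atf3 again lowest at -0.27. When both groups had IFNG, pIL-4 + IFNG over IFNG, none passed (8.25% higher and 4.34% lower), and Junb at 0.27 was highest. The Junb value in IFNG against M0[CTR] was 1 of 54 values of the 9 genes (1.85%), a smaller share than in the background of any of the 6 comparisons. The 54 values reuse the same lists, and most of the 9 genes had more loops than the median gene. With a minimum of 10 loops, the share of all genes past the fold in IFNG against M0[CTR] fell from 18.8 to 13.4%. The part of loop number in this contrast was not tested. Junb was also not past the fold in a window of 50 kb (-0.43) or 25 kb (-0.36) or with touching bin pairs merged (-0.16).

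**Figure D4:**
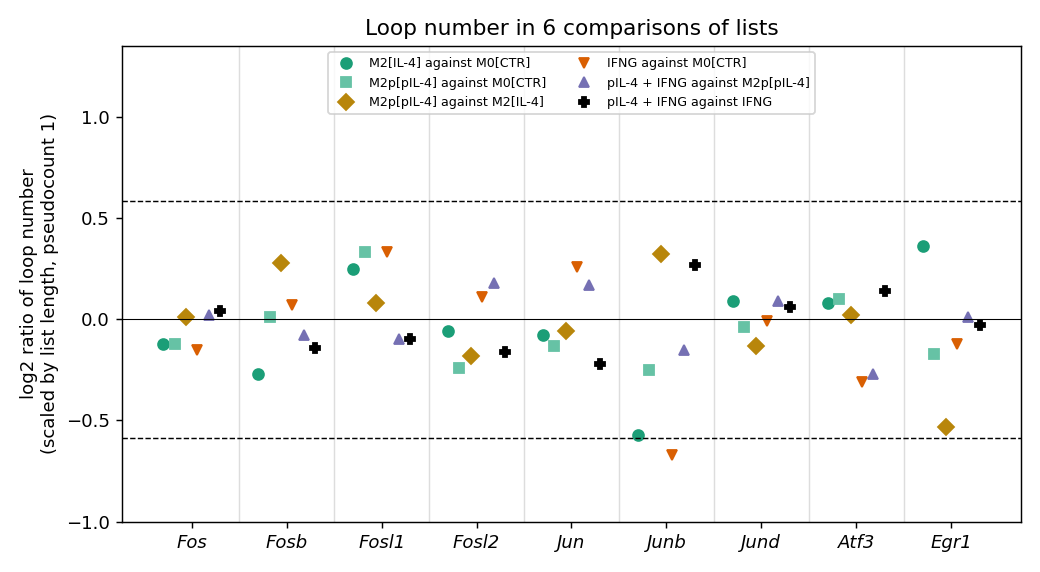
Log2 ratio of loop number (y axis, scaled by list length, pseudocount 1) for each gene in 6 comparisons of lists, named as first against second. Dashed lines mark 1.5-fold, which Junb alone passes, at -0.67 in IFNG against M0[CTR].

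Junb and Atf3 had fewer loops in IFNG than in M0[CTR]. Of the Junb bin pairs called in M0[CTR], 15 of 33 were in neither M2[IL-4] nor IFNG, against 38.4% of all M0[CTR] pairs. Of the 15, 9 were called in at least 1 of the lists of rested IL-4 cells, which are the longest lists, against 35.0% of all such pairs. These pairs share 1 locus and were picked after the Junb values were seen. The pattern of Junb over the 5 lists was most like that of Lyve1, Mrvi1 and Ctr9, with a root mean square difference of 0.06 in centred log2 loop number. These 3 genes neighbour each other on chromosome 7 and share loops.

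The IFNG ratio of rested IL-4 cells minus that of untreated cells was widest for Junb (0.52 on the log2 scale) and Fosl1 (-0.43), at percentiles 86.3 and 16.3 of all genes. Jun had log2 ratios of 0.26 and 0.17 for IFNG without and after IL-4, and Atf3 -0.31 and -0.27, so their values were alike in both settings, while none was past the fold. Over the whole set, the highest scaled loop number was 1.09 times the lowest for Jund and 1.11 times for Fos, at percentiles 0.841 and 1.16 of all genes. The median of this range over the 9 genes was 1.27, against 1.51 over all genes. Most of the 9 had more loops than the median gene, and the part of that in the narrower range was not tested.

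Contacts were then compared at bin pairs called in both lists of a comparison. A pair that lost enough contacts to go uncalled is not among them, so this choice favours values near 0. An exact two-sided binomial test per gene set the summed contacts against the ratio over all such pairs, with Benjamini-Hochberg adjustment over all genes tested, and compares 2 lists and not the conditions. None of the 9 genes passed an adjusted p of 0.05 in any of the 6 comparisons. At an unadjusted p of 0.05, 4 of the 54 values passed (7.41%). They were 1 of 9 for M2p[pIL-4] against M0[CTR] (3.21% of all genes), 2 of 9 for pIL-4 + IFNG over M2p[pIL-4] (3.52%) and 1 of 9 for pIL-4 + IFNG over IFNG (2.31%). None of the 9 passed for M2[IL-4] against M0[CTR] (4.71%), M2p[pIL-4] against M2[IL-4] (2.41%) or IFNG against M0[CTR] (3.98%). The shares of all genes that passed the adjusted p were 0.0158% for M2[IL-4] against M0[CTR], 0.0949% for IFNG against M0[CTR], 0.0224% for pIL-4 + IFNG over M2p[pIL-4] and 0.0% for each of the other comparisons.

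The log2 differences in contacts of the 9 genes ranged from -0.11 to 0.11. The lowest unadjusted p was that of Fos in pIL-4 + IFNG against IFNG, with 3198 and 3491 contacts, a log2 ratio of -0.11 (95% limits -0.17 to -0.04) and an exact binomial p of 0.00296 (adjusted p 1.0). For Junb in IFNG against M0[CTR], 11 shared bin pairs had 1683 and 1611 contacts, a log2 ratio of 0.02 (95% limits -0.08 to 0.12).

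Loops of one list without a counterpart in another were then counted, a counterpart being a bin pair whose 2 anchors both lay within 25 kb. Of the 545 loops of M2[IL-4] near the 9 genes, 31 (5.69%, 95% Wilson limits 4.04 to 7.96) had no match in M0[CTR], against 13.6% in the whole list. Fos had none among 84 loops, Jund 1 of 50 and Fosb 2 of 65. Fosl2 had 8 of 87, and Atf3 6 of 61. Egr1 had 6 of 24 (25%), the highest share. Of the 31, M2p[pIL-4] matched 23 (74.2%, limits 56.8 to 86.3), against 46.7% in the whole list. All 6 of Atf3 were matched there, 4 of 8 of Fosl2 and 3 of 6 of Egr1. The 31 loops lie at few loci and are not independent, so the limits are too narrow. A dense locus also finds a match more easily, and this share was not compared gene by gene.

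In the reverse direction, 26 of 524 M0[CTR] loops (4.96%) had no match in M2[IL-4], against 10.8% in the whole list, with Jun at 8 of 116 and Junb at 6 of 33. For M2p[pIL-4] loops without a match in M0[CTR] the values were 28 of 629 (4.45%) and 14.1%. For IFNG loops without a match in M0[CTR] they were 35 of 546 (6.41%) and 13.0%, and 14 of the 35 were near Jun. For pIL-4 + IFNG loops without a match in M2p[pIL-4] they were 27 of 632 (4.27%) and 11.4%, and 11 of these were near Jun. Atf3 and Jund had none of the last. Loops of one locus lie close together and are not independent, and a dense locus finds a match more easily, so the limits are too narrow and the whole list is not an equal comparison. Taken per gene, the median share of unmatched loops over all genes was 8.82% for M2[IL-4] against M0[CTR], and 6 of the 9 genes lay below it. In the reverse direction it was 6.06%, with 5 of the 9 below, and for IFNG against M0[CTR] 8.33%, also with 5 below. For M2p[pIL-4] against M0[CTR] 8 of the 9 lay below 10.0%, and for pIL-4 + IFNG against M2p[pIL-4] 7 lay below 6.67%.

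**Figure D5:**
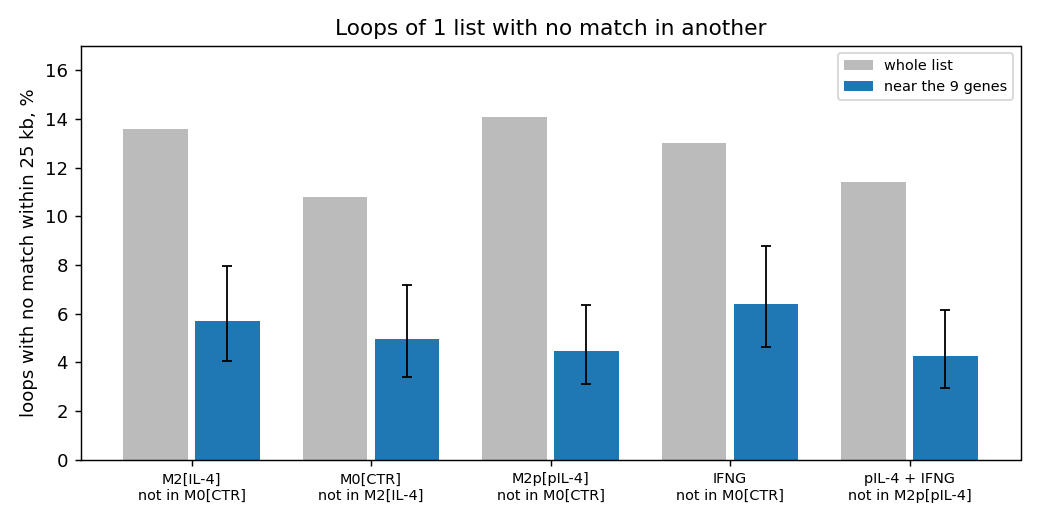
Share of loops of one list with no match within 25 kb in another list (y axis, %), for the whole list (grey) and near the 9 genes (blue, with 95% Wilson limits), in 5 comparisons (x axis). Near the 9 genes the share is 4.27 to 6.41%, and in the whole lists 10.8 to 14.1%.

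At the level of identical bin pairs the lists differed far more. The 9 windows held 1323 different bin pairs, of which 143 (10.8%) were called in all 5 lists and 613 (46.3%) in 1 list. In the series as a whole, 9.18% were called in all 5 and 55.5% in 1. Fos had the highest share called in all 5, 33 of 153 (21.6%), followed by Atf3 with 21 of 113 (18.6%). Egr1 (2 of 54) and Jun (17 of 351, 4.84%) had the lowest.

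Of 40 further genes of the pathway, other basic leucine zipper partners, immediate early genes and the kinases and factors upstream, 33 had 5 or more loops on average. For M2[IL-4] against M0[CTR], 6 of the 33 were past 1.5-fold as higher and 1 as lower, against 9.21% and 7.82% of all genes. The higher ones were Mafk (17 to 43 loops, log2 ratio 1.17) and Maff (27 to 46), which encode small MAF proteins, Klf6 (19 to 40, 0.92), Myc (29 to 52, 0.7), Egr2 (48 to 81, 0.62) and Srf (6 to 11). Egr2 is a relative of Egr1 that IL-4 is known to induce in macrophages, and SRF is the factor that switches on many immediate early genes. Nfe2l2, the oxidative stress regulator, was the lower one (36 to 24). The median of the 33 was 0.05. These genes were not put through the alternative settings, and their ratios have no replicate check.

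For M2p[pIL-4] against M0[CTR], 2 were higher (Elk4 and Map3k8) and 2 lower (Nr4a1 and Btg2). Against M2[IL-4], M2p[pIL-4] had 1 higher (Elk4) and 2 lower, Mafk (43 to 23 loops, -1.08) and Srf. Batf3 was the only gene past the fold for IFNG against M0[CTR], with 49 and 29 loops (-0.78), and it shares loops with Atf3. None of the 33 was past it for IFNG given after IL-4, and Elk4 alone was for pIL-4 + IFNG over IFNG. The shares past the fold for all genes were as given for the 9.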

How the data were processed

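The deposited lists hold 1 count of contacts per pair of 10 kb bins, made by the authors from the merged replicates of each group, and per the labels' processing notes FastQC, Bowtie2, HiC-Pro, Juicer and HOMER were used with mm10. The caller and threshold behind these lists are not given in the sources used here. The study's methods name 25 kb loops from HICCUPS, which is not the bin width of the lists. The depth of the Hi-C libraries cannot be read from them. Only the count in column 8 was used.

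Loops were assigned to protein-coding genes (GENCODE M21, 21755 genes) by anchor bins overlapping 100 kb on either side of the TSS. Loop numbers were scaled by list length, a pseudocount of 1 was added, and genes with a mean of 5 or more loops over the lists entered. With 1 list per group no test was made on loop number. The binomial test used genes with 50 or more contacts. It was also run on simulated counts drawn independently under its own assumption, which cannot show how it does on these lists. The groups follow the sample labels. Named were all 9 genes, pathway genes past 1.5-fold, per gene the TSS-bin pair with most contacts among those in all 5 lists and the strongest pair in 1 to 4, partner genes with a TSS in such a constant pair, and the 3 genes most like the gene of widest range. MboI and CTCF core sites were counted per bin on GRCm38.p6. Other bins and pairs were picked after their values were seen. The genes and lists were chosen with earlier results of these data known. Python 3 with numpy, pandas and scipy was used. Alternatives were other windows, scalings, pseudocounts, filters, units and start sites.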

Additional observations from a re-analysis of the deposited data

How the results depend on the processing

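No paired analysis was possible because the samples of a group were merged before deposit into 1 list, and no replicate could be left out for the same reason. The number of genes past 1.5-fold in loop number moved between 0 and 2 of 9 with the setting, and the share of all genes past it in either direction was 14.1 to 22.4% under those settings. For M2[IL-4] against M0[CTR] it was 1 in a window of 50 kb (Egr1), 1 in 25 kb (Fosl1), 1 without adjacent-bin loops (Junb) and 2 with touching bin pairs merged (Fos and Fosb). For M2p[pIL-4] against M0[CTR] it was 1 without scaling and 1 with scaling by contacts at bin pairs called in all 5 lists (Fosl1), and 1 with merging (Fos). For M2p[pIL-4] against M2[IL-4] it was 2 in 25 kb and 2 without adjacent-bin loops (Junb and Egr1). For IFNG against M0[CTR] it was 0 in 50 kb, 25 kb, with merging and at the TSS bin only, where just Fos and Fosl2 had 5 or more loops. For IFNG given after IL-4 it was 1 in 25 kb (Junb) and 2 with merging (Fos and Atf3). Of 660 gene ratios under the alternatives, 642 kept their side of the fold, 14 passed it and 3 no longer did. Many of the 642 could not move. The filters on loop number leave a gene's ratio as it is, and the other start sites altered the Atf3 window alone. A change of sign short of the fold counted as kept, as for Fosl1 in M2[IL-4] against M0[CTR], from 0.25 to -0.44 with merging. With merging, Fosb for M2[IL-4] against M0[CTR] turned from -0.27 to 0.6. The cause was not tested. No gene of the 9 passed the contact test under any alternative.

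The matching distance was varied after seeing the data. With identical bins the share of loops without a match near the 9 genes was 50.5% for M2[IL-4] against M0[CTR], 48.5% in reverse, 51.0% for M2p[pIL-4] and 50.7% for IFNG, both against M0[CTR], and 46.0% for IFNG after IL-4 against M2p[pIL-4]. In the whole lists it was 51.5 to 57.8%. Within 50 kb it was 2.2, 2.1, 1.59, 2.01 and 0.475%, against 4.71 to 6.59%. The limits are 1 list per group, a depth that cannot be read from the lists, and a count that is unknown where a pair was not called.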
